A study of Mus musculus with 12 samples.

Results

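The NRF2 antioxidant genes described here are 10 genes, Nfe2l2, Nqo1, Hmox1, Gclc, Gclm, Srxn1, Txnrd1, Slc7a11, Gsr and Osgin1, taken by symbol from the 57180 genes of the deposited expression table. Each was followed in all 12 mouse libraries of the series, in 4 groups of 3. Carbon tetrachloride (CCl4) is a solvent that hepatocytes turn into a reactive radical, and it is a standard agent of experimental liver injury. The liver groups held bulk RNA of C57 mice given CCl4 or vehicle; the labels name the source liver, whereas the design text names hepatocytes. The skin groups held cells positive for CX3CR1, a chemokine receptor of myeloid cells, from the dorsal skin of Cx3cr1-creER:Ai9 mice given CCl4 or vehicle, measured by smart-seq. In these mice the Cx3cr1 promoter drives an inducible Cre recombinase that switches on a red reporter, and the controls carried the same alleles. The labels and design text do not state CCl4 dose, timing, sex or age. Mouse line, tissue and assay differ together between liver and skin and cannot be told apart.

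NRF2, the product of Nfe2l2, is a transcription factor that the adaptor KEAP1 normally delivers for degradation. Electrophiles and oxidants modify KEAP1, NRF2 then accumulates, pairs with small MAF proteins and binds antioxidant response elements, which the repressor BACH1 can occupy in its place. Its targets make glutathione, reduce thioredoxin and quinones and degrade heme. In liver the pathway is known for protection against reactive drug metabolites.

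The letters near the start sites of members are shown so that they stand beside the changes of the same genes below. RefSeq promoter windows (build GRCm38.p6, 250 bases before to 50 after a start; the expression table uses another build, GRCm39) were found for 7 of the 10 members, Nfe2l2, Srxn1, Slc7a11, Gclm, Nqo1, Osgin1 and Txnrd1. Hmox1, Gclc and Gsr had none. Both strands were searched for the core of the antioxidant response element (TGACNNNGC, present in 12.4% of all 32851 windows), the AP-1 site (TGANTCA, 7.81%), the site shared by ATF4 and CEBP factors (TGATGNAA, 3.97%) and the E-box (CACGTG, 7.15%). A TGANTCA match can lie inside a TGACNNNGC match. The sequences run 5′ to 3′ on the gene's strand with the match in capitals, and positions count from the start, with bases before it negative.
Nfe2l2, TGACNNNGC, positions -240 to -232, chr2:75704885-75704913, minus strand: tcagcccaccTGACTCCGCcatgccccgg
Gclm, TGACNNNGC on the opposite strand, positions -134 to -126, chr3:122245413-122245441, plus strand: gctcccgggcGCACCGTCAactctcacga
Srxn1, TGANTCA, positions -102 to -96, chr2:152105412-152105438, plus strand: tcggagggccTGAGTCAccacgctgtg
Srxn1, TGANTCA, positions -45 to -39, chr2:152105469-152105495, plus strand: aaattcacccTGAGTCAgcggccgggc
Slc7a11, TGATGNAA, positions -66 to -59, chr3:50443662-50443689, minus strand: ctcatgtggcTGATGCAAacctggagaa
Slc7a11, TGATGNAA on the opposite strand, positions -47 to -40, chr3:50443643-50443670, minus strand: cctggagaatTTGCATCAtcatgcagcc
Srxn1 also held a TGACNNNGC match past its start, Osgin1 a TGANTCA match, and 1 of the 3 annotated starts of Txnrd1 a TGACNNNGC match. The Nqo1 window held none of the 4 motifs. These matches are letters in a window, and binding was not measured.

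All values are in TPM, a unit of transcript abundance that corrects for transcript length and sets each library to the same total, so levels of different genes can be set side by side while the sequencing depth is unknown. The liver libraries differed in one respect that touches every liver value. Mitochondrially encoded genes and 11 nuclear near-copies of them took 25.7% to 28.4% of TPM in the vehicle livers and 82.1%, 80.2% and 68.1% in CCl4 livers 1, 2 and 3, against 0.843% to 4.66% in skin. Since TPM sums to a fixed total, every other liver gene had a smaller remainder to share after CCl4: the median change of all 10385 genes tested was -0.59 on the log2 scale. After the mitochondrial genes and copies were left out and the rest rescaled to the same total, that median was 0.85. Liver results are therefore given first for members whose direction held on 5 scales (TPM as deposited, the rescaling just described, a rescaling without the mitochondrial and the 10 most abundant genes, median-ratio scaling and quantile normalization), and then by rank and by ratios within a library.

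Hmox1 and Srxn1 rose in the CCl4 livers on all 5 scales, Slc7a11 was higher in every CCl4 liver than in every vehicle liver, and Nfe2l2 rose on 4 of the 5. Hmox1, the inducible heme oxygenase that breaks heme down to biliverdin, iron and carbon monoxide, measured 2.13, 2.82 and 2.69 TPM in the vehicle livers and 25.7, 24.7 and 14.8 TPM in the CCl4 livers. The groups did not overlap, and the lowest CCl4 liver was the one with the lowest mitochondrial share. The change was 2.65 ± 0.26 on the log2(TPM + 1) scale (SE, n = 3 per group; limma, Benjamini-Hochberg adjusted p = 4.09e-05), and 4.42 ± 0.40 after rescaling. Srxn1, sulfiredoxin, which repairs over-oxidised peroxiredoxins, measured 10.6, 10.6 and 11.7 TPM under vehicle compared with 58.2, 30.6 and 57.4 TPM under CCl4. Every CCl4 liver lay above every vehicle liver, with CCl4 liver 2 the lowest of its group. Its change was 2.00 ± 0.30 (limma adjusted p = 0.000414) as deposited and 3.72 ± 0.27 rescaled. In 1 limma fit over all 12 libraries, whose shared spread includes the more variable skin libraries, the adjusted p of Srxn1 was 0.111 and that of Hmox1 0.0313.

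Slc7a11 encodes the light chain of the cystine-glutamate exchanger, which brings in cystine for glutathione synthesis. It was listed at 0, 0.07 and 0.02 TPM in the vehicle livers and at 2.15, 0.99 and 1.40 TPM in the CCl4 livers, so only 2 of the 6 liver libraries reached the filter of 1 TPM in at least 3 libraries. The groups did not overlap; the difference of the log2(TPM + 1) means was 1.26, and the two-sided exact permutation test gave p = 0.1, the smallest that 3 against 3 allows. Without the filter, limma gave an adjusted p of 0.0124.

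Nfe2l2 itself measured 22.4, 18.2 and 21.3 TPM in vehicle livers 1 to 3 compared with 19.7, 31.6 and 31.7 TPM in CCl4 livers 1 to 3. CCl4 liver 1 lay inside the vehicle range and the other two above it. On the deposited scale the change of 0.38 ± 0.28 did not pass (limma adjusted p = 0.254, 95% interval -0.24 to 1.00), while after rescaling it was 2.07 ± 0.21 (limma adjusted p = 0.000534). Rescaled, Nfe2l2 came to 31.3, 24.6 and 28.6 under vehicle compared with 110, 160 and 99.4 under CCl4, with no overlap.

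**Figure D1:**
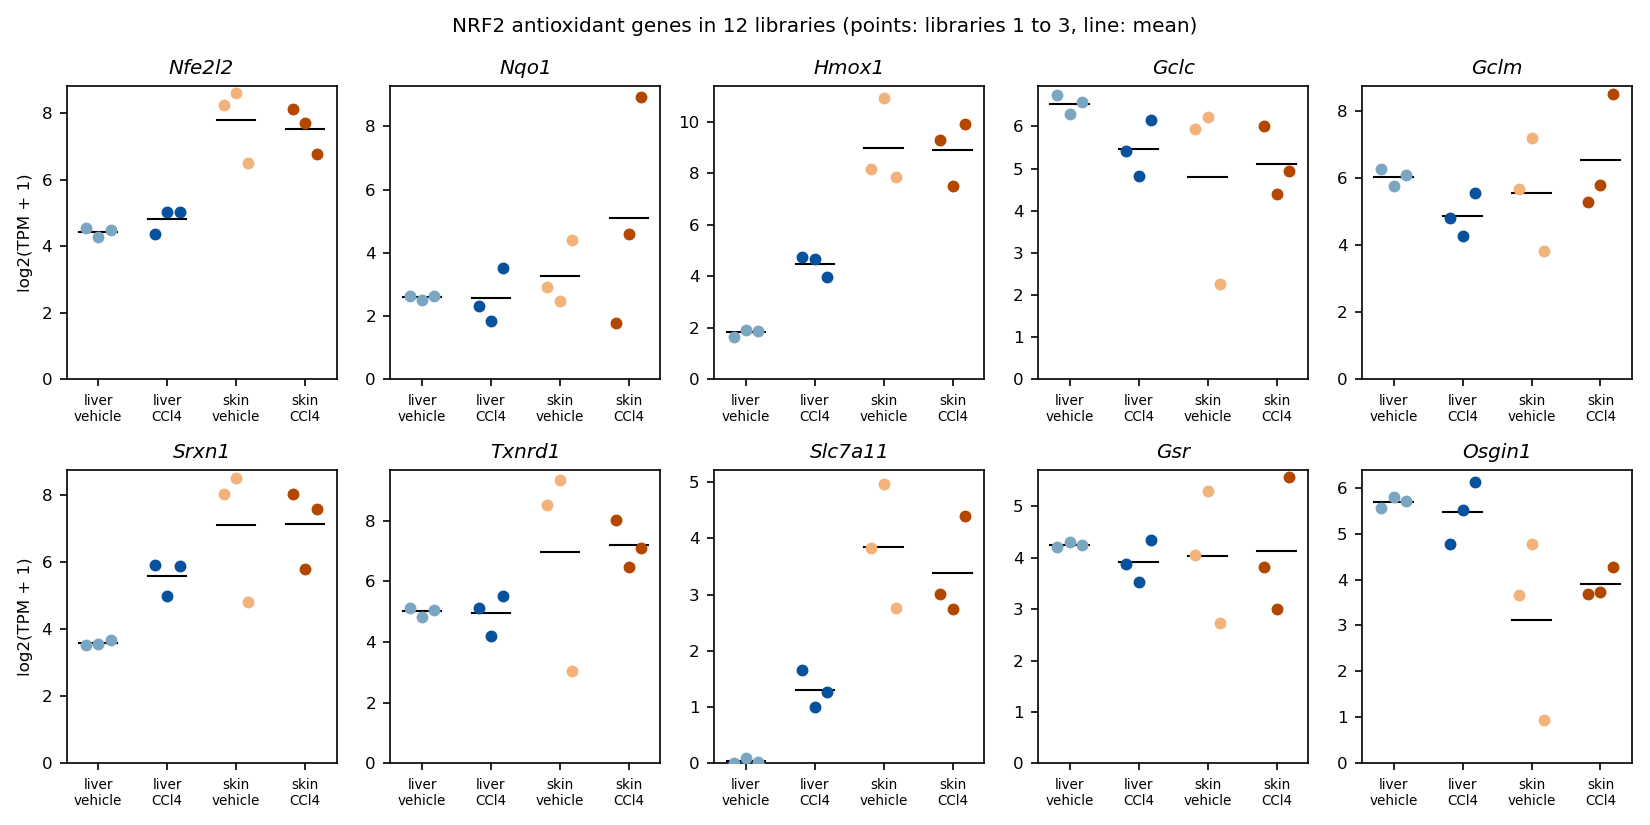
TPM of the 10 members as log2(TPM + 1) on the vertical axis in each of the 12 libraries; points from left to right are libraries 1 to 3 of a group and the line is their mean. Hmox1, Srxn1 and Slc7a11 are higher in every CCl4 liver than in every vehicle liver, Gclc and Gclm are lower, and in skin the groups overlap for all 10 members.

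The subunits of glutamate-cysteine ligase, the rate-limiting enzyme of glutathione synthesis, went the other way on the deposited scale and changed sign after rescaling. Gclc, the catalytic subunit, measured 106, 77.4 and 94.3 TPM under vehicle compared with 42.0, 27.3 and 69.7 TPM under CCl4. Gclm, the modifier subunit, measured 75.5, 52.8 and 67.5 TPM under vehicle compared with 26.8, 18.1 and 45.8 TPM under CCl4. For both, every CCl4 liver lay below every vehicle liver, and CCl4 liver 3 came closest to the vehicle range. The change of Gclc was -1.07 ± 0.36 (limma adjusted p = 0.0235) and that of Gclm -1.17 ± 0.35 (limma adjusted p = 0.0145) as deposited, against 0.61 ± 0.23 (adjusted p = 0.0472) and 0.50 ± 0.24 (adjusted p = 0.0895) rescaled. On the deposited scale the Gclc call was lost without CCl4 liver 1, CCl4 liver 2, vehicle liver 1 or vehicle liver 3, and the Gclm call without CCl4 liver 1 or vehicle liver 1. On the rescaled values the groups overlapped for both genes: Gclc was at 147, 104 and 127 against 234, 138 and 219.

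The remaining 4 members did not pass the test on the deposited scale and were called higher after rescaling. Txnrd1, cytosolic thioredoxin reductase, measured 34.0, 27.6 and 32.1 TPM under vehicle compared with 34.0, 17.2 and 44.9 TPM under CCl4. Its change was -0.06 ± 0.35 (95% interval -0.82 to 0.70) as deposited and 1.62 ± 0.28 rescaled (limma adjusted p = 0.00202). The CCl4 livers thus lay on both sides of the vehicle livers. Gsr, glutathione reductase, was at 17.4, 18.7 and 18.0 TPM against 13.6, 10.5 and 19.4 TPM, a change of -0.33 ± 0.27 (95% interval -0.93 to 0.26) as deposited and 1.32 ± 0.16 rescaled. Nqo1, a quinone reductase much used as an NRF2 readout, was at 5.23, 4.72 and 5.23 TPM against 4.04, 2.58 and 10.5 TPM, a change of -0.03 ± 0.35 (95% interval -0.80 to 0.73) as deposited and 1.504 ± 0.31 rescaled. The spread of Nqo1 among the CCl4 livers was wide, with CCl4 liver 3 highest. Osgin1, an oxidative stress-induced growth inhibitor, was at 45.9, 54.8 and 51.7 TPM against 26.3, 44.9 and 68.8 TPM, a change of -0.22 ± 0.35 (95% interval -0.99 to 0.56) as deposited and 1.47 ± 0.19 rescaled.

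On all 5 scales 2 of the 9 tested members were called higher and none lower, against 9.82% and 4.15% of the 10361 genes tested on every scale. Counted together, 2 of the 9 tested members rose, 2 fell and 5 did not pass on the deposited scale, where 10.3% of all tested genes rose and 51.1% fell. Rescaled, 8 of the 9 were called higher and none lower, against 66.8% and 4.2% of the 10362 genes tested, so most genes at large were called higher on that scale too. Of the 9 tested members, 2 were higher in every CCl4 liver than in every vehicle liver (11.4% of tested genes) and 2 were lower (58.8%) as deposited. Slc7a11, which was not tested, was higher without overlap as well. The members' median change was -0.06 beside -0.59 for all genes as deposited. Leaving out CCl4 liver 3, which also has the lowest mitochondrial share, raised the number of members that fell from 2 to 4. Among all 10385 genes the number that fell rose from 5304 to 6502. Without vehicle liver 1 or CCl4 liver 1, 0 members fell, beside 4403 and 3908 of all genes. Without vehicle liver 3 or CCl4 liver 2 it was 1 member, beside 3907 and 4643 of all genes. The replicates are separate biological samples by the design text, and p-values measure the spread between them.

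**Figure D2:**
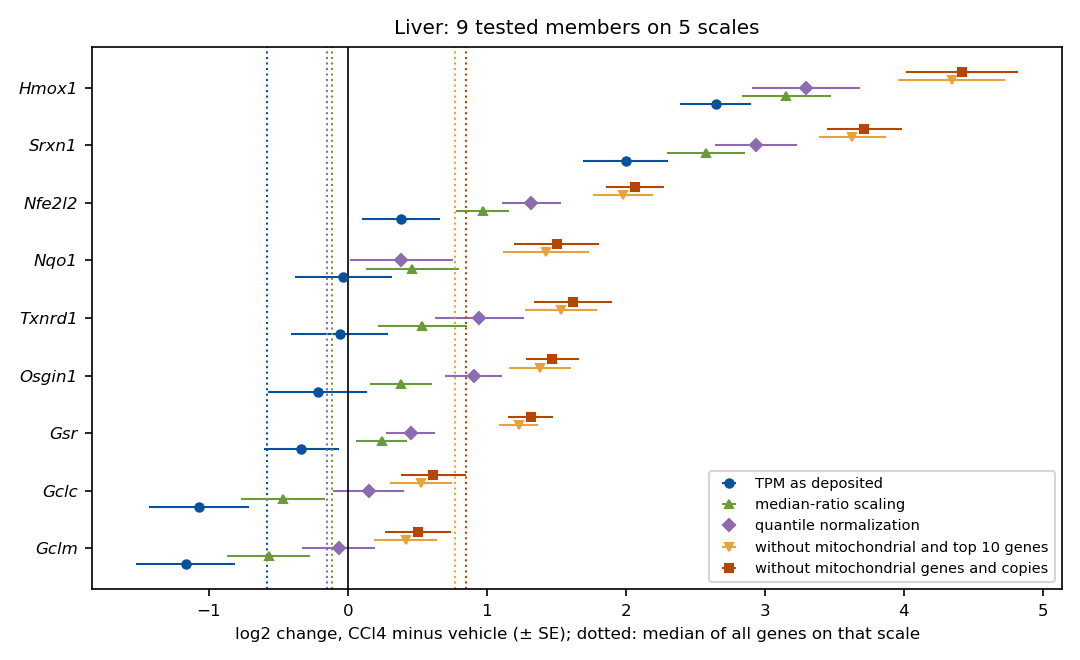
Log2 change in liver, CCl4 minus vehicle, with its SE on the horizontal axis for the 9 tested members on 5 scales; dotted lines mark the median of all genes on the same scale. Hmox1 (2.65 as deposited, 4.42 without mitochondrial genes and copies) and Srxn1 (2.00 and 3.72) lie to the right of zero on every scale, while Gclc and Gclm cross it.

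Ranks within a library do not move with its scaling. Among 10363 genes, with mitochondrial genes and copies left out, Hmox1 stood at percentiles 24.2 to 28.3 in the vehicle livers and 77.8 to 91.1 in the CCl4 livers. Srxn1 moved from 64.0 to 67.0 up to 91.6 to 95.8, and Nfe2l2 from 75.2 to 79.3 up to 88.2 to 91.8. Slc7a11 did not pass the filter and was added to the ranked genes, so its place near the bottom with vehicle was fixed beforehand. It stood at 0.2 to 1.0 with vehicle and 9.3 to 34.5 with CCl4. Osgin1 went from 87.6 to 89.1 up to 91.3 to 94.2 and Txnrd1 from 81.7 to 84.7 up to 85.5 to 93.2. Gsr went from 75.2 to 75.7 up to 77.4 to 83.5, and each of these moves was without overlap. How many of the 10363 genes had ranks without overlap was not counted, so no share stands beside the rank moves of the members. Gclc (91.5 to 93.3 against 90.6 to 94.4) and Gclm (88.7 to 91.3 against 86.1 to 91.5) kept overlapping ranks near the top of the list in both groups. Nqo1 ranks overlapped as well, at 42.1 to 48.2 against 35.7 to 70.7.

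**Figure D3:**
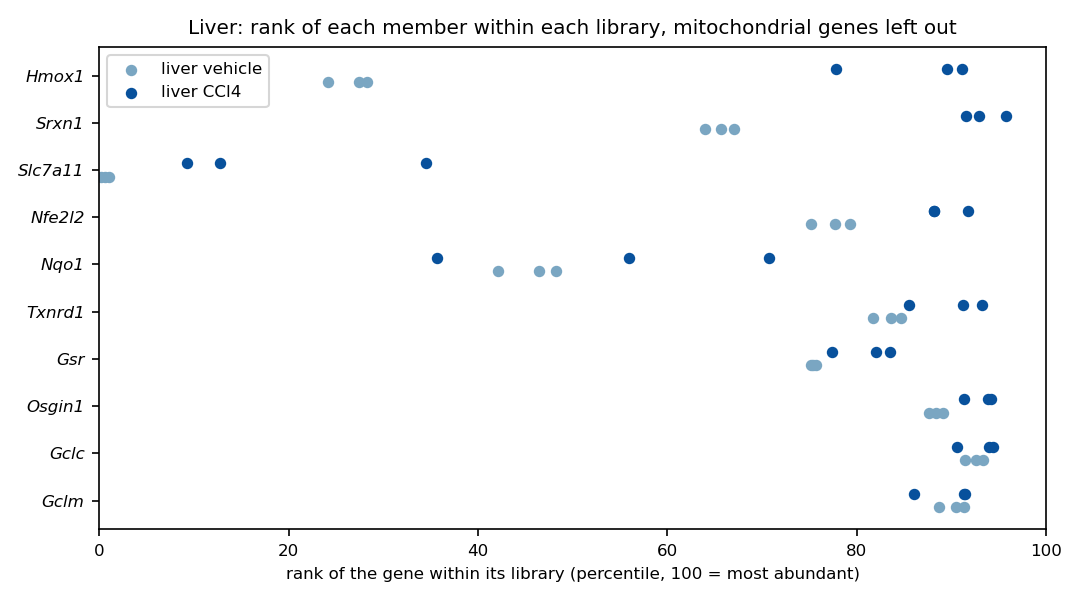
Percentile rank of each member within each of the 6 liver libraries (horizontal axis, 100 = most abundant), with mitochondrial genes and copies left out. Hmox1 moves from 24.2 to 28.3 in the vehicle livers up to 77.8 to 91.1 in the CCl4 livers, whereas the ranks of Gclc, Gclm and Nqo1 overlap between the groups.

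Ratios of 2 genes within a library show unequal change of the pair and, with nothing added to the TPM, are likewise free of the scaling. The ratio of Hmox1 to Hmox2, the constitutive heme oxygenase, was 0.0654, 0.0825 and 0.0833 with vehicle and 2.15, 2.13 and 1.10 with CCl4, so the less abundant isoenzyme became the more abundant in all 3 CCl4 livers. The difference was 4.48 on the log2 scale. Srxn1 per Prdx1, the peroxiredoxin it repairs, went from 0.0141, 0.0155 and 0.0166 to 0.170, 0.171 and 0.103, a log2 difference of 3.23. Keap1 per Nfe2l2 went from 0.377, 0.536 and 0.490 to 0.197, 0.138 and 0.196, a log2 difference of -1.41: in every CCl4 liver the mRNA of the inhibitor was scarcer relative to that of its target. Gclm per Gclc moved little, from 0.715, 0.682 and 0.715 to 0.638, 0.663 and 0.657, a log2 difference of -0.11 without overlap. In each of these 4 the two-sided exact permutation test gave 0.1, its smallest possible p with 3 against 3. Slc7a11 per Slc3a2, the heavy chain of the exchanger, was 0 to 0.00488 with vehicle and 0.0501 to 0.0892 with CCl4. With 1 TPM added to both genes the log2 difference was 0.61 (exact permutation p = 0.1). That difference does depend on the scaling, since the added 1 TPM exceeds the Slc7a11 level of every vehicle liver. Txnrd1 per Gsr (log2 difference 0.29, exact permutation p = 0.3) and Nqo1 per Nfe2l2 (-0.48, exact permutation p = 0.7) overlapped between the groups.

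Cell type markers moved with these liver changes. All 10 hepatocyte markers fell as deposited and 6 of 10 after rescaling, beside 51.1% and 4.2% of all genes. None was called higher on any of the 5 scales, and they summed to 66896 to 74400 TPM with vehicle and 12932 to 30599 with CCl4. All 9 Kupffer cell markers rose as deposited, beside 10.3% of all genes (summed TPM 25.6 to 69.5 against 117 to 304). Of these, 8 rose on all 5 scales. Some markers of other cell types reached 1 TPM in the CCl4 livers only, so the filter admitted them through the group in which they were high, and they are left out of the next counts. Of the others, 5 of 5 monocyte and macrophage markers, 7 of 7 endothelial markers and 2 of 2 stellate cell and fibroblast markers rose, on all 5 scales. Of the 9439 genes that reached 1 TPM in at least 1 liver of each group, 4.92% did. Markers below the filter were not tested: 8 of 12 monocyte and macrophage, 8 of 8 endothelial and 6 of 9 stellate cell and fibroblast markers were. The full lists summed to 13.4 to 24.5 against 135 to 461 TPM for monocytes and macrophages, 21.8 to 25.8 against 131 to 395 TPM for endothelial cells, and 7.37 to 10.7 against 83.0 to 178 TPM for stellate cells and fibroblasts. The 8 neutrophil markers summed to 0.12 to 0.86 TPM with vehicle, where 3 of them were at 0 in every library, and to 33.1 to 355 TPM with CCl4; all 4 that were tested reached 1 TPM in CCl4 livers only. Hmox1 was at 181 to 1951 TPM in the skin libraries of this series, which differ from liver in mouse line, tissue and assay. Those libraries also held keratinocyte marker sums of 2263 to 20202 TPM and T and NK cell sums of 939 to 7234 TPM. In bulk RNA, a change in the number of cells of a type and a change in RNA per cell cannot be told apart, and the part of these cells in the Hmox1, Srxn1, Slc7a11 and Nfe2l2 results was not tested.

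The wider pathway was followed in 115 genes of 11 lists ordered by role, of which 106 were tested in liver. As deposited, 13 rose, 66 fell and 27 were not called, beside 10.3% and 51.1% of all genes; the median change was -1.02 beside -0.59 for all genes; rescaled, 60 were called higher and 6 lower, beside 66.8% and 4.2%, with a median of 0.62 beside 0.85. Because so many calls turn with the scale, the genes called the same way on all 5 scales are the ones described first. There were 13 such genes higher and 5 lower, beside 9.82% and 4.15% of all genes, but 7 of the 13 (Abcc4, Abcc5, Akr1b8, Asns, Gpx3, Psat1 and Sod3) were below 1 TPM in every vehicle liver and passed the filter only through the CCl4 livers, so their calls carry no weight and only their levels are given. Of the other 99 tested pathway genes, 6 were higher and 5 lower on all 5 scales. The shares among the 9439 genes that reached 1 TPM in at least 1 liver of each group were 4.92% and 3.73%. Both pathway counts are thus near those of genes at large, and the genes below are described singly.

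The 6 higher genes came from 3 lists. In the amino acid stress list, whose genes share the ATF4 route with Slc7a11, they were Ddit3, the stress transcription factor CHOP (4.70 to 7.45 TPM with vehicle, 26.2 to 39.8 with CCl4, log2 change 2.28 ± 0.27), and the pseudokinase gene Trib3 (1.73 to 2.22 against 2.58 to 4.72 TPM), which lies outside the naming rule and was chosen after its values were seen. Of the 7 tested genes of that list 4 were called higher and none lower as deposited, beside 10.3% and 51.1% of all genes. The other 3, Atf4 itself (0.03 ± 0.33), Sesn2 (0.02 ± 0.17) and Atf3 (1.70 ± 1.18), were not called. The list's members Psat1 of serine synthesis (0.20 to 0.32 against 2.31 to 5.18 TPM) and Asns, asparagine synthetase (0.71 to 0.75 against 2.14 to 5.16 TPM), are among those admitted by the CCl4 livers alone. Without these 2 genes, 2 of 5 were called higher. Slc3a2, partner chain of Slc7a11, was at 12.8, 14.4 and 14.9 TPM with vehicle and 24.1, 19.8 and 24.3 TPM with CCl4 (0.65 ± 0.25, limma adjusted p = 0.0369). Glutathione S-transferases couple glutathione to electrophiles. Of 20 tested, 3 rose and 14 fell as deposited, beside 10.3% and 51.1% of all genes. Rescaled, 6 were called higher and 3 lower, beside 66.8% and 4.2%. Gsta1 went from 8.58, 12.2 and 9.68 up to 53.7, 36.4 and 140 TPM (2.58 ± 0.43), and Gstp2 (1.83 ± 0.50) and Gstm3 (1.505 ± 0.53) rose as well. Their paralogs Gstp1 (-1.94 ± 0.39) and Gsta3 (-2.22 ± 0.46) fell as deposited and were not called after rescaling. The paralogs of the Gsta, Gstm and Gstp families are similar in sequence, so how reads were divided among them is uncertain. The remaining genes admitted by the CCl4 livers alone were the efflux pumps Abcc4 (0.10 to 0.37 against 3.57 to 5.01 TPM) and Abcc5 (0.18 to 0.79 against 1.42 to 3.09 TPM), the aldo-keto reductase Akr1b8 (0.37 to 0.59 against 3.65 to 13.8 TPM), the secreted superoxide dismutase Sod3 (0.20 to 0.42 against 3.24 to 6.15 TPM) and the secreted glutathione peroxidase Gpx3 (0.09 to 0.27 against 1.52 to 3.13 TPM). That their levels did not overlap between the groups was fixed beforehand by the filter.

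The 5 genes lower on all 5 scales were Cth, Cat, Gstz1, Gstk1 and Mgst1. Catalase, Cat, which destroys hydrogen peroxide in peroxisomes, was at 1077 to 1114 TPM in the vehicle livers and at 176, 87.6 and 363 TPM in the CCl4 livers (-2.62 ± 0.44, limma adjusted p = 0.000736; -0.92 ± 0.33 rescaled). Cth, the last enzyme of cysteine synthesis from methionine, went from 268 to 280 TPM down to 45.6, 49.0 and 99.98 TPM (-2.15 ± 0.35; -0.45 ± 0.14 rescaled). Cbs, the enzyme before it, fell as deposited (-2.27 ± 0.40) and did not pass after rescaling (-0.58 ± 0.24, limma adjusted p = 0.0649). Gstz1 (-2.65 ± 0.44) and Gstk1 (-2.17 ± 0.35) are the maleylacetoacetate isomerase of tyrosine breakdown and a mitochondrial and peroxisomal transferase. Mgst1, a microsomal transferase, was named after its values were seen and was at 5137 to 5715 TPM with vehicle and 946 to 2128 TPM with CCl4. Hepatocyte markers fell beside these genes, as given above, and their part was not tested.

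In the other lists the calls depended on the scale, and several counts likewise lay near those of genes at large. Of all genes, 51.1% fell as deposited and 66.8% were called higher after rescaling. Of 14 regulators of NRF2, 7 fell and none rose as deposited, led by Dpp3 (-1.20 ± 0.28), a KEAP1-binding peptidase, Btrc (-1.15 ± 0.20), a ubiquitin ligase receptor for NRF2, and the small MAF gene Mafg (-1.10 ± 0.25). All 3 were positive after rescaling, at 0.40, 0.07 and 0.43, and 11 of the 14 were then called higher. Keap1 was at 8.44, 9.76 and 10.4 TPM with vehicle and 3.88, 4.36 and 6.20 TPM with CCl4 as deposited, but at 11.8, 13.2 and 14.003 against 21.7, 22.1 and 19.4 after rescaling, without overlap on either scale and in opposite directions. Of 11 thioredoxin and peroxiredoxin genes 10 fell as deposited, beside 51.1% of all genes, led by Prdx6 (-2.07 ± 0.39), Prdx5 (-1.72 ± 0.32) and Txnrd2 (-1.65 ± 0.24); after rescaling none was called lower, beside 4.2% of all genes, and 4 were called higher. Of 9 heme and iron genes 7 fell as deposited, among them Fech (-1.75 ± 0.37), Alas1 (-1.41 ± 0.49) and Hmox2 (-1.35 ± 0.24); rescaled, 6 of the 9 were called higher, which is about the 66.8% of all genes, and Fech, Alas1 and Hmox2 were not called, at -0.12, 0.28 and 0.28. Of 7 NADPH-supplying genes 4 fell as deposited, with Idh1 at -1.97 ± 0.40, Me1 at -1.33 ± 0.40 and Taldo1 at -1.13 ± 0.29, and 5 of the 7 were called higher after rescaling, Taldo1 among them at 0.55 ± 0.12. Other falls as deposited under the naming rule were Gpx1 (-2.16 ± 0.35), Sod2 (-2.17 ± 0.42) and Gsta3 (-2.22 ± 0.46). Akr1c13 (-2.14 ± 0.43), Ces1g (-1.93 ± 0.41), Abcc3 (-1.99 ± 0.36) and Abcg2 (-1.99 ± 0.35) fell as well. After rescaling Gpx1 was still called lower (-0.45 ± 0.17, limma adjusted p = 0.0431), and the others were not called.

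**Figure D4:**
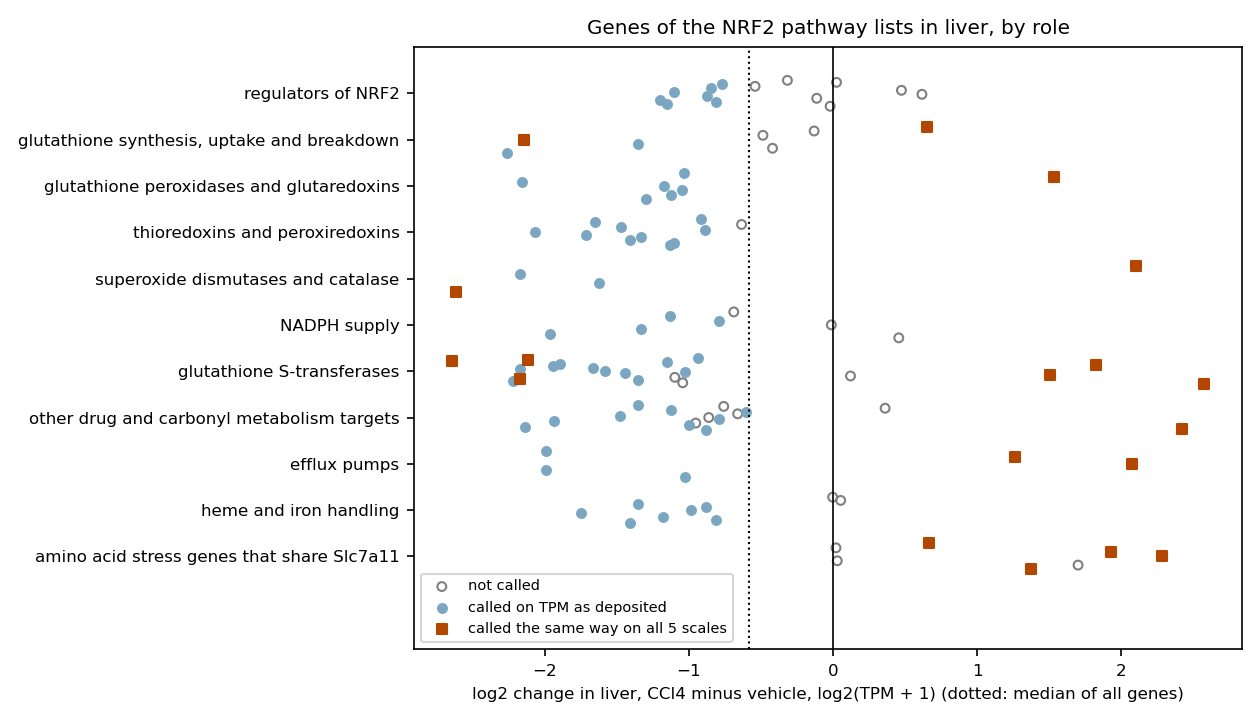
Log2 change in liver, CCl4 minus vehicle, of the 106 tested pathway genes (horizontal axis), by role; squares mark genes called the same way on all 5 scales, filled circles those called on TPM as deposited only or not on all scales, open circles those not called. The dotted line is the median of all genes, -0.59. Squares on the right include the 7 genes below 1 TPM in every vehicle liver, such as Abcc4, Sod3 and Psat1. Of 7 tested amino acid stress genes 4 were called higher, none lower and 3 not called, beside 10.3% higher and 51.1% lower of all genes.

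The skin libraries have to be described before their values. Cx3cr1 itself was at 0 to 5.28 TPM, and myeloid genes marked 5 of the 6 libraries: Langerhans and dendritic cell markers summed to 4948 to 17589 TPM and monocyte and macrophage markers to 7531 to 17716 TPM. CCl4 library 3 stood apart, with 137 and 1443 TPM of those lists, 6.61 TPM of dermal macrophage markers against 584 to 3409 in the others, H2-Ab1 at 20.7 TPM against 4738 to 16569, and Mrc1 at 0. Its keratinocyte marker sum was the highest, 20202 TPM, of which Krtdap was 19821 TPM, while Krt5 (36.1 TPM) and Krt14 (264 TPM) were the lowest of the 6 libraries. Its neutrophil marker sum was 588 TPM against 22.3 to 92.4. The differences without it are given beside the results below. Both libraries numbered 1 listed more genes above 0, 28357 and 28870, than the other 4, 21328 to 23494.

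In the skin cells no member passed the test between CCl4 and vehicle: all 10 were tested, none was called (limma adjusted p = 0.999903 for each), and the groups overlapped for all 10. Of all 13767 genes, 0% were called higher and 0% lower, with 288 at an unadjusted limma p under 0.05, and 2.56% of genes were higher and 2.72% lower without overlap. The intervals were wide, and for every member they reached past 1 log2 unit in both directions. Hmox1 had the highest mean of the members in both skin groups, though not the highest value in vehicle library 1 or CCl4 library 2, at 289, 1951 and 234 TPM with vehicle and 621, 181 and 963 TPM with CCl4, a difference of -0.10 ± 0.91 (95% interval -2.16 to 1.96). Nfe2l2 was at 303, 385 and 89.6 against 274, 207 and 107 TPM (-0.26 ± 0.69, interval -1.82 to 1.30). Txnrd1 had the widest range as a ratio in the vehicle group, at 367, 653 and 7.25 TPM, against 259, 87.1 and 137 TPM (0.22 ± 1.42). Srxn1 was at 257, 357 and 26.8 against 257, 53.6 and 187 TPM (0.02 ± 1.01). In each of these 4 the spread within a group exceeded the difference between groups. Without CCl4 library 3 the differences were -0.60 for Hmox1, 0.12 for Nfe2l2, 0.27 for Txnrd1 and -0.20 for Srxn1, so those of Nfe2l2 and Srxn1 changed sign.

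The spread among skin libraries was shared by many members. Vehicle library 2 was the highest of the 6 for 7 members and vehicle library 3 the lowest for 7, so that the extremes both lay in the vehicle group. Marker sums differed between these libraries too: vehicle library 3 had the highest T and NK cell sum (7234 TPM against 939 to 3196 in the others) and 12595 TPM of keratinocyte markers against 2263 and 3052 in the other vehicle libraries, and vehicle library 2 had the highest fibroblast sum (6381 TPM) and dermal macrophage sum (3409 TPM). Their part in the spread of the members was not tested. Summed over the 10 members, TPM was 1374, 3664 and 407 with vehicle and 1547, 651 and 2354 with CCl4. Gclc, at 60.5, 73.4 and 3.77 against 63.3, 20.1 and 29.8 TPM (0.31 ± 1.05), followed that pattern. Osgin1, at 11.6, 26.3 and 0.92 against 11.8, 12.3 and 18.4 TPM (0.77 ± 0.96), and Slc7a11, at 13.2, 30.3 and 5.78 against 7.06, 5.74 and 20.1 TPM (-0.46 ± 0.80), shared the high value in vehicle library 2. Without CCl4 library 3 the differences of Gclc, Osgin1 and Slc7a11 were 0.40, 0.58 and -0.97. Without vehicle library 3 the differences of Gclc, Srxn1, Txnrd1, Gsr and Osgin1 became negative, at -0.96, -1.13, -1.74, -0.54 and -0.32.

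The 3 members whose highest value lay in CCl4 library 3 were Nqo1, Gclm and Gsr. Nqo1 was at 6.50, 4.55 and 20.1 TPM with vehicle and 2.47, 23.4 and 485 TPM with CCl4, a difference of 1.85 ± 1.52 (95% interval -1.58 to 5.28). Gclm was at 49.95, 145 and 13.2 against 38.1, 53.9 and 361 TPM (0.96 ± 1.05), and Gsr at 15.5, 38.6 and 5.60 against 13.1, 7.05 and 46.3 TPM (0.11 ± 0.90). Without CCl4 library 3 these differences were -0.06, -0.03 and -0.61. The 2 largest positive skin differences among the members therefore rested on the library whose macrophage, Langerhans and dendritic cell marker sums were lowest. The part of its cell makeup was not tested. None of the 108 tested pathway genes was called in skin by limma, with an adjusted p of 0.999903 for each gene named. The lowest unadjusted limma p in the lists was 0.0369, for Nmral1, an NADPH sensor (-1.56 ± 0.64). In the transferase list it was 0.0626, for Gsta2 (1.45 ± 0.69). The 7 within-library ratios overlapped between the skin groups.

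**Figure D5:**
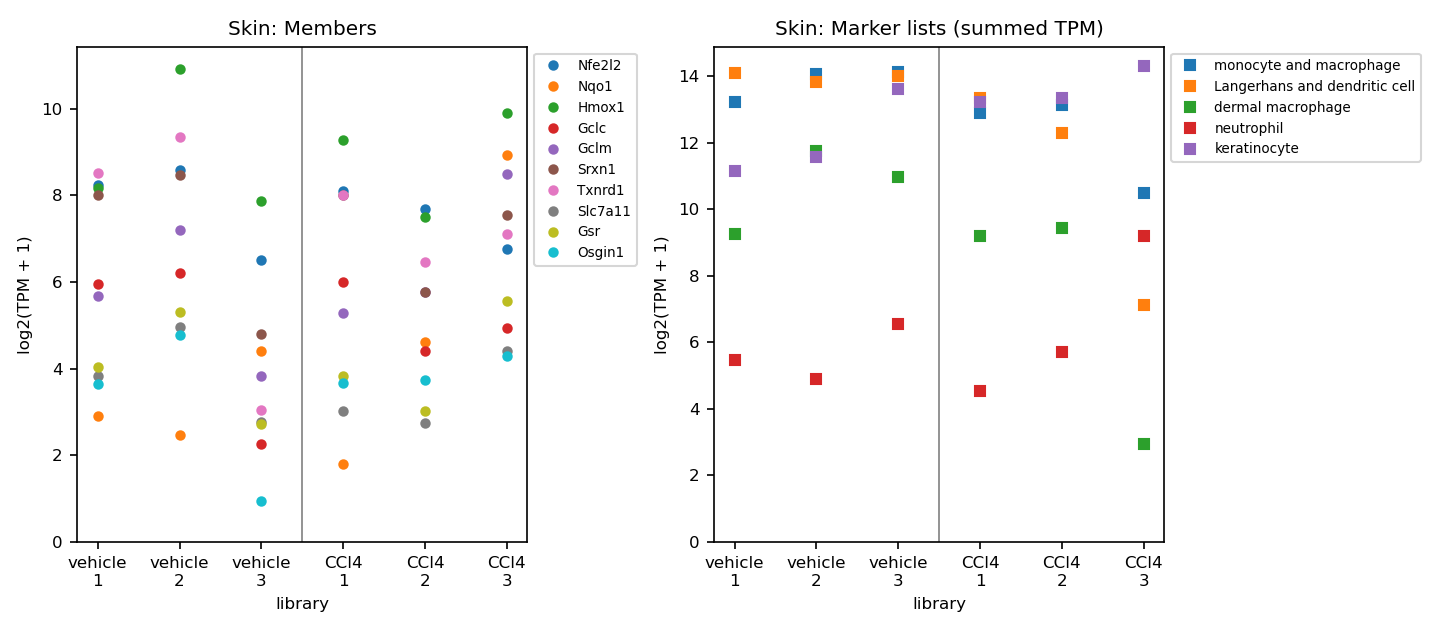
Log2(TPM + 1) of the 10 members (left) and of summed marker lists (right) in the 6 skin libraries, 3 with vehicle and 3 with CCl4. CCl4 library 3 has the highest Nqo1 (485 TPM) and Gclm (361 TPM) and the lowest dermal macrophage marker sum (6.61 TPM), and vehicle library 3 is lowest for 7 members.

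The difference between the liver and skin effects was tested itself for the 9 members that passed both filters, and none was called; of all 9255 genes, 0.151% were called higher and 0.0648% lower in liver relative to skin. Hmox1 had a difference of 2.74 ± 1.05 (limma adjusted p = 0.184, 95% interval 0.46 to 5.02), Srxn1 of 1.98 ± 1.16 (adjusted p = 0.346) and Gclm of -2.13 ± 1.22 (adjusted p = 0.335). Hmox1 passed under both rescalings without mitochondrial genes, with limma adjusted p-values of 0.0314 and 0.0368. Srxn1 passed without skin vehicle library 3, with a limma adjusted p-value of 0.0460. A liver effect on Hmox1 or Srxn1 is thus not shown to differ from that in skin on the deposited scale.

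The order of the members by level differed between the groups. In vehicle liver it ran from Gclc (mean 92.5 TPM) and Gclm (65.3) through Osgin1 (50.8), Txnrd1 (31.2), Nfe2l2 (20.6), Gsr (18.0), Srxn1 (10.98), Nqo1 (5.06) and Hmox1 (2.55) to Slc7a11 (0.03); the ranges of the neighbours Gclm and Osgin1, and of Nfe2l2 and Gsr, overlapped, and the other neighbours were apart. In CCl4 liver Srxn1 (48.7), Osgin1 (46.7) and Gclc (46.3) led with overlapping ranges, and Hmox1 stood at 21.7 TPM; every pair of neighbours from Srxn1 down to Gsr overlapped. In vehicle skin cells Hmox1 (825), Txnrd1 (343), Nfe2l2 (259) and Srxn1 (214) led, and Osgin1 (12.9) and Nqo1 (10.4) were last. In CCl4 skin cells Hmox1 (588) and Nfe2l2 (196) led and Slc7a11 (10.96) was last. All neighbours overlapped in both skin groups.

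Over the 12 libraries and 8573 named genes, those most like Hmox1 in log2(TPM + 1) were Aldh18a1 (Pearson r = 0.984), Pitpnm1 (0.978), Vamp3 (0.976), Pkm (0.976) and Trim35 (0.976). Those most like Gclm were Ptcd3 (0.958), Mtmr9 (0.932), Lmo7 (0.930), Trmt5 (0.928) and Mical2 (0.923). The libraries fall into liver and skin, which differ in assay and mouse line, so these values describe a shared ordering of tissues and libraries and carry no test.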

How the data were processed

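The deposited table gives TPM, a length-corrected share of transcripts, per Ensembl gene, made by the authors from polyA libraries; per the submitters' processing notes, fastp, HISAT2, StringTie and RSEM were used with GRCm39, with no versions or roles stated. The library protocol in the labels describes the bulk libraries. TPM carries no counts, so the depth and its precision are unknown. Of 57180 gene IDs, 51884 matched a symbol; 1 listed symbol, a misspelling in the heme and iron list, matched none and was not measured. No 2 columns were identical.

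Values were analysed as log2(TPM + 1), a scale that understates changes of low genes. Genes with at least 1 TPM in at least 3 of the 6 libraries of a tissue were fitted per tissue with limma 3.58.1 (R 4.3.3; empirical Bayes with a mean trend, no covariates, two-sided), and p-values were adjusted by Benjamini-Hochberg over all of them, with 0.05 as threshold. The difference between tissues came from 1 model of the 4 groups over genes passing both filters. Ratios were compared by exact permutation tests in scipy 1.17.1 over 7 pairs per tissue. Near-copies of mitochondrial genes (at least 95% identity over 90% of the length) were found with BLAST 2.17.0. The limma script was tested on simulated data.

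The members, lists, markers and tests were chosen with earlier results of these data known. Every member is named, as are up to 3 called liver genes in each direction with the largest change in each list. The 5 genes most like the member of lowest liver p in each direction are named too. In skin, where none was called, the gene of lowest p is given only for the transferase list and the list holding Nmral1. Alternatives were pseudocounts of 0.1 and 5, no filter and a filter at 5 TPM, 4 other scalings, a replicate block, a fit over all 12 libraries, a robust fit, a term for or removal of the skin libraries numbered 1, and each library left out. Some alternatives for the difference between tissues and for the ratios, and a skin block by the number in the library name, were added after seeing the data.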

Additional observations from a re-analysis of the deposited data

How the results depend on the processing

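The scaling of the liver libraries decided most counts. As deposited, 2 members were called higher and 2 lower in liver, and 13 and 66 of the 106 tested pathway genes. Of all 10385 genes, 1073 were higher and 5304 lower. Under quantile normalization 4 members were higher and 0 lower, with 22 and 19 pathway genes, beside 1778 and 2574 of all genes. Without mitochondrial and top 10 genes the members called were 7 and 0 and the pathway genes 54 and 7. Of all 10365 genes tested there, 6497 were higher and 495 lower. Without mitochondrial genes and copies they were 8 and 0, and 60 and 6, beside 6922 and 435 of 10362 genes. Median-ratio scaling left 0 members and 36 pathway genes lower, beside 2720 of 10385 genes. In 1 fit over all 12 libraries 1 member was higher and 0 lower, with 3 and 18 pathway genes, beside 334 and 1402 of 10385. The filter at 5 TPM, which tests fewer genes, left 5 pathway genes higher, beside 321 of 5702 genes. No filter left 0 members lower, beside 4527 of 24989 genes. Leaving out 1 library gave 0 to 4 members lower in liver, beside 3907 to 6502 of 10385 genes. In liver relative to skin, 1 member was called higher under each of the 2 rescalings without mitochondrial genes, and 0 to 1 when 1 library was left out. The rescalings called 642 of 9231 and 543 of 9237 genes higher, and leaving out 1 library called 3 to 179 of 9255. In skin no member was called under any alternative run. Beyond the scalings themselves and the smaller numbers of genes or libraries, the cause of these shifts was not tested.

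Between the deposited scale and the rescaling without mitochondrial genes and copies, 60 of the 106 tested pathway genes turned sign, Keap1 among them (-0.87 to 0.66). For the members and the pathway genes named by the rule, the liver changes (log2) that turned sign follow. Nqo1 was 0.020 with pseudocount 5, 0.46 under median-ratio scaling, 0.38 under quantile normalization, 1.42 without mitochondrial and top 10 genes, 1.504 without mitochondrial genes and copies, and -0.51 to 0.33 with 1 library left out. In the order of the same 4 scalings, Txnrd1 was 0.53, 0.94, 1.53 and 1.62, Gsr 0.24, 0.45, 1.23 and 1.32, and Osgin1 0.38, 0.91, 1.38 and 1.47. With 1 library left out, Txnrd1 was -0.35 to 0.32 and Osgin1 -0.55 to 0.13. Under the last 3 scalings Gclc was 0.15, 0.53 and 0.61, Taldo1 0.018, 0.46 and 0.55, and Abcc2 0.22, 0.57 and 0.66. Under the 2 rescalings Gclm was 0.42 and 0.50, Dpp3 0.32 and 0.40, Mafg 0.35 and 0.43, Chac2 0.12 and 0.21, Glrx 0.22 and 0.31, Glrx5 0.37 and 0.46, Me1 0.25 and 0.34, Ephx1 0.13 and 0.22, Alas1 0.19 and 0.28, and Hmox2 0.19 and 0.28. Btrc (0.069) and Sod1 (0.083) turned only without mitochondrial genes and copies. The log2 ratio of Nqo1 to Nfe2l2 was -0.93 to 0.080 with 1 library left out.

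In skin, Srxn1 was -0.0093 with pseudocount 5, -0.16 under quantile normalization and -0.10 without mitochondrial and top 10 genes, and Gsr -0.0024 on that last scale. With 1 library left out, the skin changes were -0.90 to 0.14 for Nfe2l2, -0.058 to 3.51 for Nqo1, -0.65 to 0.87 for Hmox1, -0.96 to 1.02 for Gclc, -0.030 to 1.77 for Gclm, -1.13 to 0.71 for Srxn1, -1.74 to 1.41 for Txnrd1, -1.01 to 0.094 for Slc7a11, -0.61 to 0.75 for Gsr and -0.32 to 1.60 for Osgin1.

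With the replicate block, 2 members were higher and 2 lower in liver and 0 in skin. The labels do not say that replicate numbers pair mice, and same-numbered libraries shared deviations across genes with correlations of -0.04, 0.08 and 0.07 in liver and 0.59, 0.09 and 0.35 in skin, not always best with their own number. The deposited library names carry other numbers in skin: vehicle library 2 and CCl4 library 3 are both numbered 4 there, and their deviations correlated at -0.18. A replicate block by those names, added after seeing the data, shares only 2 numbers between the skin groups and leaves 1 residual degree of freedom; it called 86 genes higher and 178 lower in skin, 0 members among them and 1 pathway gene, Gsta1, chosen after its value was seen. The skin changes that turned sign under it were 0.041 for Hmox1, -0.60 for Gclc, -0.46 for Srxn1, -1.38 for Txnrd1 and -0.24 for Osgin1. Of the other values, 977 kept direction and side of the threshold, 102 lost a call and 9 gained one. With 3 libraries per group and unknown depth, levels near 0, such as Slc7a11 in vehicle liver, have no stated floor.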

Other observations

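Skin CCl4 library 3 had the lowest macrophage, Langerhans and dendritic cell marker sums. It also held the highest skin values of several detoxification genes of the pathway lists, chosen here after their values were seen. Gsta1 was at 447 TPM there against 1.65 to 24.3 TPM in the other 5 skin libraries, and Gsta4 at 302 against 4.83 to 22.2 TPM. Gpx2, an epithelial glutathione peroxidase, was at 80.9 TPM against 0.05 to 8.18 TPM, and Cbr3, a carbonyl reductase, at 93.3 against 6.28 to 23.4 TPM. Gstp1 was at 2755 TPM against 180 to 747 TPM. None of these was called between the skin groups.

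Ferritin subunits, which store the iron that heme oxygenase releases, were among the most abundant pathway transcripts of the skin cells. Ftl1 lay between 15455 and 39174 TPM and Fth1 between 8932 and 23145 TPM in the 6 skin libraries, compared with 986 to 2591 TPM and 483 to 1387 TPM in the 6 liver libraries. Tissue, assay and mouse line cannot be told apart in that comparison, which carries no test.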
